A study of Mus musculus with 8 samples.

Results

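The 10 genes described here encode proteins of excitation-contraction coupling and calcium handling in skeletal muscle: Cacna1s, Stac3, Ryr1, Jph1, Casq1, Casq2, Atp2a1, Atp2a2, Sln and Pvalb. Every region that the deposited accessibility table annotates to one of these genes was taken, which gave 436 of the 489637 regions in the table and 10 of its 27552 annotated genes. The assay was ATAC-seq: a transposase cuts and tags accessible chromatin, so that a region's signal reflects how open it was in the nuclei sampled. Nuclei were isolated at 6 months of age from gastrocnemius, a muscle of the calf, with 2 whole muscles per library. All 8 libraries carry the genotype Cre+:iMSBmal1 fl/fl, that is, a Cre transgene and floxed copies of the clock gene Bmal1. The 4 vehicle libraries were labelled with vehicle treatment, and the 4 iMSBmal1KO libraries with tamoxifen, a drug commonly used to switch on an inducible Cre. The promoter that drives Cre, the time of day and the interval after treatment are not given in the sources used here. Drug and knockout cannot be told apart in this design, because every tamoxifen library belongs to the knockout group. The labels do not say that the libraries came from separate mice, so p-values measure the spread between these samples, which may be technical.

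When a muscle fibre is depolarised, the voltage sensor of the transverse tubule (Cacna1s, held in place with the adaptor Stac3) opens the calcium release channel of the sarcoplasmic reticulum (Ryr1) across a junction that junctophilin (Jph1) holds together. Calcium bound to calsequestrin (Casq1 and Casq2) inside the reticulum flows out and starts contraction. The calcium pumps (Atp2a1 and Atp2a2, restrained by small peptides such as sarcolipin, Sln) return it, and parvalbumin (Pvalb) buffers it in the cytosol of fast fibres. Atp2a1 is the pump of fast fibres, and Atp2a2 that of slow fibres and heart. Casq1 is the main skeletal muscle calsequestrin, and Casq2 is best known from heart and slow fibres.

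The 250 bases before the annotated start of transcription were read from RefSeq's promoter table of build GRCm38.p6, which holds 6 of the 10 genes. Of those with sequence, Atp2a1 had the highest promoter signal per kilobase in vehicle muscle and Casq2 the lowest, and Casq1 is shown as the counterpart of Casq2. Capitals mark matches, on either strand, to CANNTG (the E-box, of which CACGTG and CAGCTG are forms), to the MEF2 motif or to CATTCC (the MCAT motif). The windows are chr7:126463074-126463323 on the minus strand for Atp2a1, chr1:172219896-172220145 on the minus strand for Casq1 and chr3:102086165-102086414 on the plus strand for Casq2.
Atp2a1: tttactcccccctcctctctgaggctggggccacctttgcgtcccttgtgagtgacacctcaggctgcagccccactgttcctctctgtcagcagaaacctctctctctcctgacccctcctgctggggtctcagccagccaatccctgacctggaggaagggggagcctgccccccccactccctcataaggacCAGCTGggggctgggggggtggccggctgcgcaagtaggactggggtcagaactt
Casq1: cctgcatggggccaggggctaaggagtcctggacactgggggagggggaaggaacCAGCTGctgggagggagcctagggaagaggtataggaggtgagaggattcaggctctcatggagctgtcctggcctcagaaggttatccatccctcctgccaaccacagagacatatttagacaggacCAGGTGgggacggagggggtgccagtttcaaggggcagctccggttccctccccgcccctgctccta
Casq2: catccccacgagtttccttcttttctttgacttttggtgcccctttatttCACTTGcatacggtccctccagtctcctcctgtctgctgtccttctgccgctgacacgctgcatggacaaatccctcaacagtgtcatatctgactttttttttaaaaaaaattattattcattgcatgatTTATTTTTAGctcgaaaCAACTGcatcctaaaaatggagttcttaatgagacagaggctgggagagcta
The Atp2a1 window has a GC content of 64.0% and a CAGCTG whose first base lies 55 bases before the start. The Casq1 window has a GC content of 61.6%, a CAGCTG at 195 bases and a second E-box at 67 bases before the start. The Casq2 window, at 41.6% GC, holds E-boxes at 200 and 52 bases and a MEF2 match at 69 bases before the start. Regions of the deposited table cover 152, 250 and 147 of the 250 bases, respectively. Over the 7 windows of the 6 genes, as Pvalb has 2 starts, CANNTG occurred in 5, CAGCTG in 3, the MEF2 motif in 2 and CATTCC in 1. No window held CACGTG, the TATAAA sequence or the CArG box. Among all 32851 promoter windows of the same length, CANNTG occurred in 66.2%, CAGCTG in 13.0%, the MEF2 motif in 2.92%, CATTCC in 12.6%, CACGTG in 6.02%, TATAAA in 12.4% and the CArG box in 1.47%. These matches are letters in a window and were not tested as binding sites.

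Of the 9 promoters measured, 6 were among the more open ones of the muscle, between percentile 89.2 and 99.2 of all promoters by signal per kilobase. Signal is given as in the deposited table, in reads divided by a scaling factor per library, and promoter signal is the sum over regions within 1000 bp of the annotated start. Per kilobase of region, the vehicle promoter signal of Atp2a1 was 1686 ± 352 (SD, n = 4) and that of Ryr1 was 1612 ± 384. Jph1 followed with 1199 ± 251, Casq1 with 955 ± 189, Pvalb with 834 ± 118 and Stac3 with 679 ± 113. Cacna1s had 348 ± 57.5, Casq2 187 ± 20.4 and Atp2a2 177 ± 31.3. In the order of these levels, neighbours overlapped between vehicle libraries except at 2 steps, from Stac3 to Cacna1s and from Cacna1s to Casq2. Among the 22214 promoters of the table, Atp2a1 and Ryr1 stood at percentile 99.2 and 99.0 per kilobase, Cacna1s at 73.3, and Casq2 and Atp2a2 at 58.6 and 57.5. The rank depended on the division by length, as the Cacna1s promoter was spread over 18 regions and 2671 bp. By promoter sum, Cacna1s stood at percentile 93.8, above Stac3 at 85.4, while Atp2a2 stood at 71.9 and Casq2 at 57.9. Sln had no region within 1000 bp of its annotated start.

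**Figure D1:**
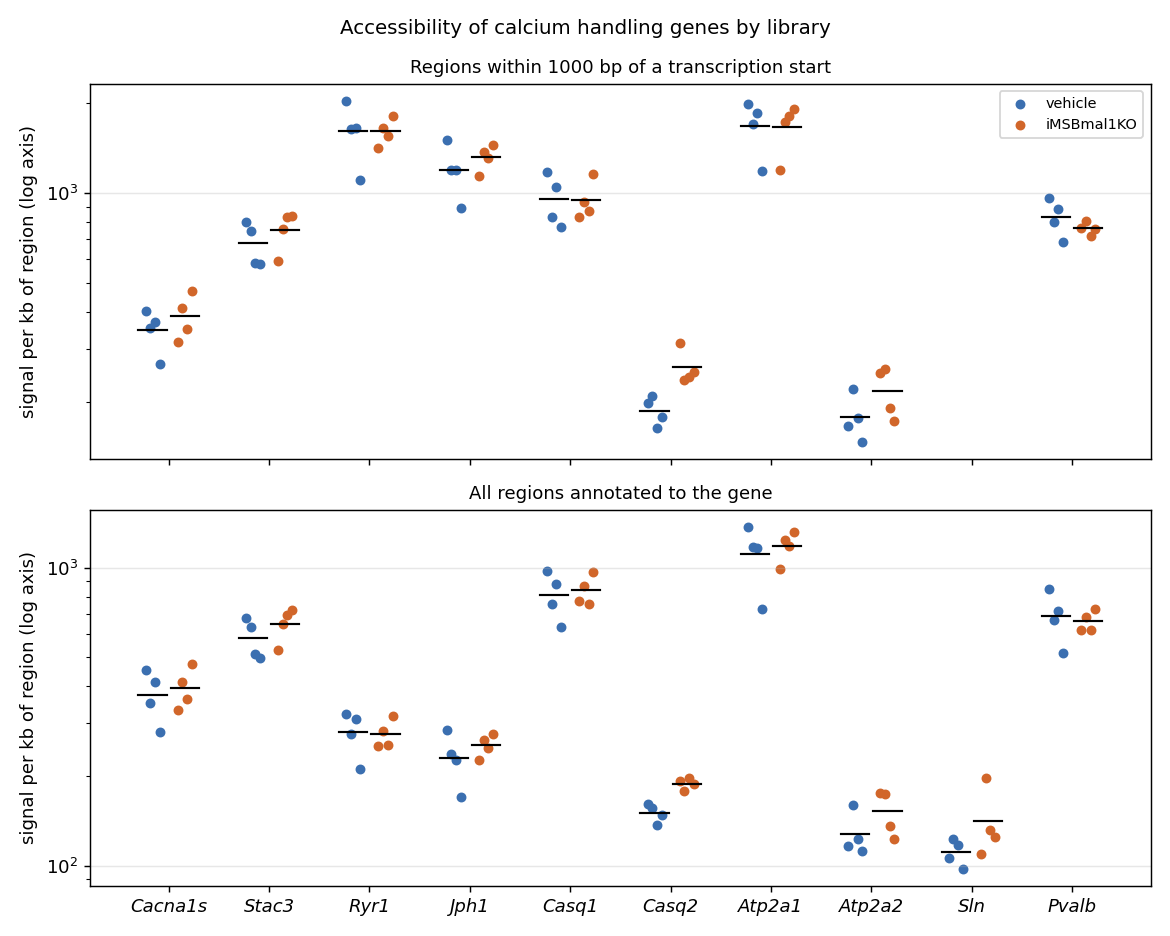
Signal per kilobase of region (vertical axes, logarithmic) in each library, over promoters (upper panel, 9 genes) and over all regions of a gene (lower panel, 10 genes), with 1 point per library and a bar at each group's mean. In the upper panel, Atp2a1 and Ryr1 are highest at vehicle means of 1686 and 1612, and Casq2 and Atp2a2 lowest at 187 and 177. Casq2 is the gene whose groups do not overlap in either panel.

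Seen over whole genes, 36.2% of the vehicle signal of the 10 genes lay in regions annotated as TSS, the section that surrounds the start of transcription. Introns held 31.5% and coding exons 24.5%, followed by 5′ UTR exons with 3.75%, 3′ UTR exons with 2.15% and the transcript end with 1.94%. The genes differed in how this signal was spread. In Stac3, 83.1% lay in TSS regions, and in Atp2a2 81.5%, whereas Cacna1s held 61.8% in introns, Casq2 68.1% in introns and Ryr1 67.1% in coding exons. The single region with the highest signal held 78.2% of the signal of Stac3, 46.2% of that of Ryr1 and 17.1% of that of Cacna1s. In Ryr1 this region is labelled coding exon 1 but also counts in the promoter sum above. Most of the coding-exon share of Ryr1 was therefore signal near its start.

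**Figure D2:**
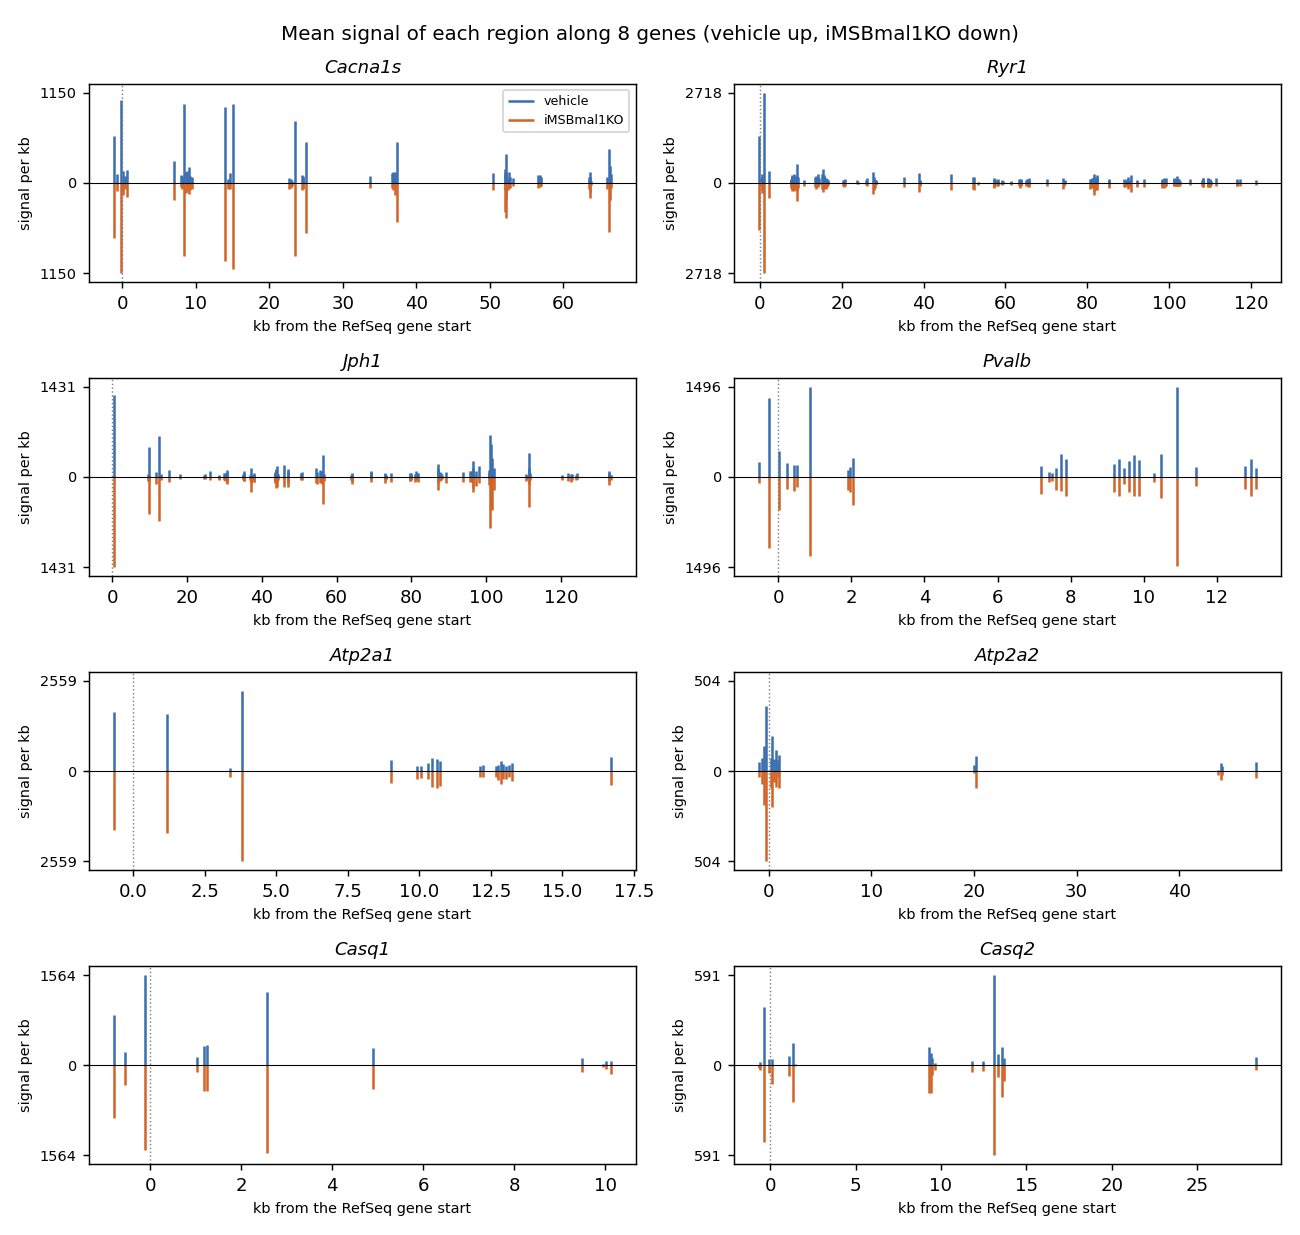
Mean signal of each region per kilobase in vehicle libraries (upward lines) and iMSBmal1KO libraries (downward lines) against the distance of the region's centre from the RefSeq start of the gene (horizontal axis, kb, positive into the gene), for 8 of the genes. Vertical scales differ between panels. Open regions away from the start stand out in Atp2a1, Pvalb, Casq2 and Cacna1s, with lines of like length on both sides.

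No region of these genes differed between iMSBmal1KO and vehicle muscle at an adjusted p under 0.05. Of the 436 regions, 232 had enough signal to be tested, and limma called 0 of them, against 0.0881% of all 124901 regions tested. At an unadjusted p under 0.05, 6 regions had higher and 7 lower signal in the knockout, which is 2.59% and 3.02% of those tested, against 6.59% and 2.63% of all regions. This split moved with the processing, to 2 higher and 11 lower with loess scaling, 2 and 8 without vehicle replicate 4, and 5 and 1 with a minimum count of 20. The median log2 difference was 0.07 over the 232 regions and 0.12 over all regions, and 59.5% against 62.0% had positive values. The median of the 232 regions was negative with loess scaling and with limma-voom, at −0.04 and −0.02, and over the 245 regions tested without vehicle replicate 4 it was −0.04. Groups did not overlap in 6 regions with higher and 4 with lower knockout values, against a background of 3.62% and 1.87% of all regions. The smallest adjusted p was 0.379, and limma-voom also called 0, with 18 regions at an unadjusted p under 0.05.

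Summed by gene, limma called 0 of the 10 genes, against 0.13% of all 22224 genes. In 8 of the 10 the log2 difference was positive, as it was in 66.6% of all genes. The median log2 difference was 0.14, against 0.11 over all genes. Casq2 alone had an unadjusted p under 0.05, where 9.48% of all genes did, and limma-voom likewise gave 0 called and 1 such gene. Summed over promoters, 0 of 9 were called, against 0.079% of all 17720 promoters, and again Casq2 was the 1 gene with an unadjusted p under 0.05, against 10.1% of all promoters. Summed by gene section as the table annotates it, 0 of 91 sections were called, against 0.148% of all 51322 sections, and 3 had an unadjusted p under 0.05, or 3.30%, against 9.84% of all sections. These were Ryr1 coding exon 10 (log2 difference −1.04), Cacna1s intron 5 (−0.87) and the Casq2 TSS (0.48). Exon and intron numbers are the table's labels. Regions with the same label were summed whatever their transcript, so a numbered section can pool distant sites. limma-voom called 0 promoters and 0 sections, with 1 and 4 at an unadjusted p under 0.05. With 4 libraries per group, the interval given for each gene shows the precision of its difference.

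**Figure D3:**
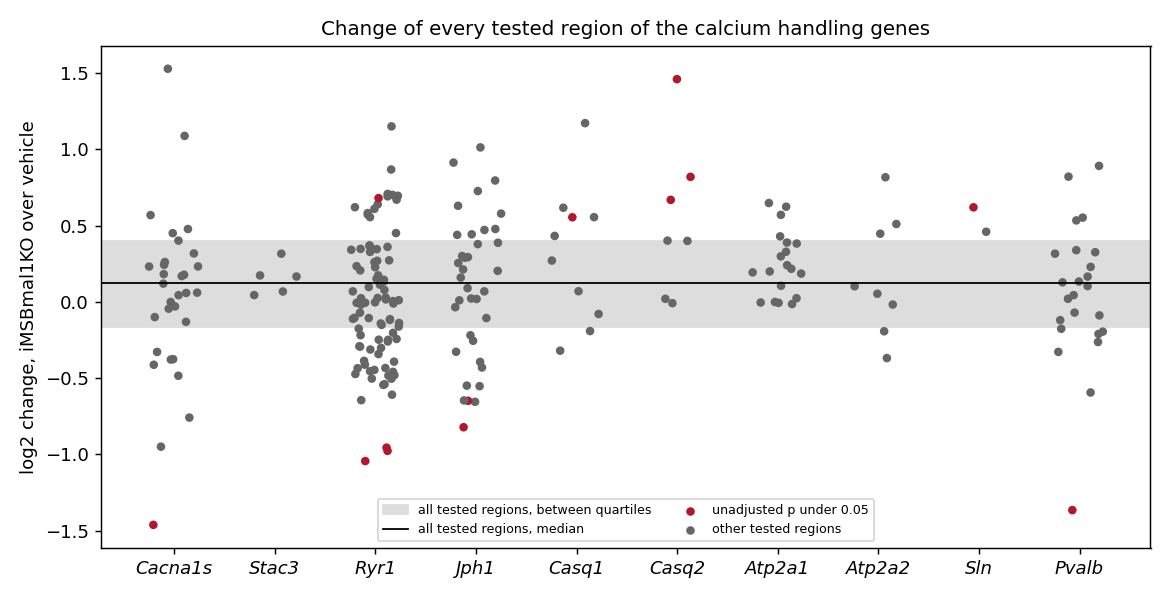
Log2 difference between iMSBmal1KO and vehicle (vertical axis) for each of the 232 tested regions, by gene (horizontal axis), with regions at an unadjusted p under 0.05 in red. The line marks the median of all tested regions, 0.12, and the shaded band the range between their quartiles, −0.16 to 0.40. The 13 red points lie on both sides of the line, with 3 higher ones in Casq2 and 3 lower ones in Ryr1.

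The voltage sensor and its adaptor were open at the promoter and showed no called difference. Cacna1s encodes the pore subunit of the dihydropyridine receptor, and its 57 regions, 31 of them tested, were spread along the gene. Its highest region lay over the start at chr1:136052377-136052893, with 545 ± 96.8 in vehicle (SD, n = 4) and 594 ± 120 in knockout libraries. Somewhat less signal lay in each of 3 regions of intron 2 (chr1:136061026-136061455, chr1:136066607-136067070 and chr1:136067607-136068049), whose vehicle means were 432, 448 and 443. These regions, singled out after their values were seen, are centred 8434, 14032 and 15022 bp into the gene, and per kilobase they reached 1008, 967 and 1002, beside 1056 at the start. Summed over the gene, the vehicle libraries read 3847, 2993, 3505 and 2383, and the knockout libraries 2826, 3504, 3074 and 4034. The groups overlapped, with the highest value in knockout replicate 4 and the lowest in vehicle replicate 4. The log2 difference was 0.09 (SE 0.16, 95% interval −0.24 to 0.42, adjusted p = 0.851), and that of the promoter was 0.15 (−0.22 to 0.52, adjusted p = 0.734).

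The Cacna1s region with the smallest p was annotated to intron 5, chr1:136109645-136109845. It read 19.2, 19.5, 12.7 and 12.5 in vehicle libraries and 8.13, 10.9, 0 and 11.3 in knockout libraries. All knockout values were below all vehicle values, but the region rested on at most 20 reads in any vehicle library. Its log2 difference was −1.46 (SE 0.67, adjusted p = 0.533), and −0.60 without knockout replicate 3, the library listed at 0.

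Stac3 encodes the adaptor that the voltage sensor needs to couple to Ryr1. It had 5 regions, all tested. The main one, chr10:127501644-127502151, annotated as TSS, read 553, 531, 389 and 428 in vehicle and 413, 540, 595 and 597 in knockout libraries. The groups overlapped, with 2 knockout libraries above the vehicle range and none below it. This was also the Stac3 region with the smallest p, at a log2 difference of 0.17 (SE 0.19, adjusted p = 0.772). All 5 regions had positive differences, between 0.04 and 0.32 with a median of 0.17. Over all tested regions, 62.0% were positive, with a median of 0.12. The sum over Stac3 differed by 0.16 (−0.17 to 0.49, adjusted p = 0.718).

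The calcium release channel had its signal concentrated near its start. Ryr1 had 147 regions, 89 of them tested, but a single one annotated to coding exon 1, chr7:29123648-29124479, held 46.2% of the gene's signal. It is centred 1115 bp into the gene and read 2919, 2324, 2265 and 1529 in vehicle and 1956, 2321, 2197 and 2529 in knockout libraries. Vehicle replicates 1 and 4 held both the highest and the lowest value, and the knockout values lay between them. The log2 difference was 0.03 (SE 0.18, 95% interval −0.35 to 0.41, adjusted p = 0.971). The summed signal of Ryr1 was 4891 ± 866 in vehicle and 4829 ± 534 in knockout libraries (SD, n = 4), a log2 difference of −0.01 (−0.31 to 0.30, adjusted p = 0.990). At the promoter the difference was 0.03 (−0.33 to 0.38, adjusted p = 0.959).

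Within Ryr1, differences were mostly negative in coding-exon regions and mostly positive in introns, a split noticed after the values were seen and not tested. Of 40 coding-exon regions tested, 13 had positive differences, with a median of −0.23 on the log2 scale. Of 42 intronic regions, 26 had positive differences, with a median of 0.12. Over all genes, coding-exon regions had a median of 0.06 with 55.4% positive, and intronic regions a median of 0.10 with 59.2% positive. The smallest p of any region of the 10 genes was in Ryr1 coding exon 10, chr7:29110892-29111011. It read 30.9, 31.9, 29.2 and 28.1 in vehicle and 15.4, 8.36, 13.1 and 22.6 in knockout libraries. Every knockout value was below every vehicle value, with a log2 difference of −1.04 (SE 0.32, 95% interval −1.71 to −0.37), and the adjusted p was 0.379. Regions at chr7:29124783-29124901 (coding exon 1, log2 difference −0.96) and chr7:29023214-29023323 (coding exon 9, −0.98) had separated groups in the same direction. Groups were separated the other way, with higher knockout values, in 2 Ryr1 introns, at chr7:29032891-29033067 (log2 difference 0.57) and chr7:29039822-29039935 (0.64). All 5 were weak regions, with vehicle means of at most 30.0. By coordinate, the region labelled coding exon 9 lies farther into the gene than that labelled coding exon 10. These numbers are therefore labels and do not give the order along the gene.

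Jph1, the junctional tether, had 127 regions, of which 37 had enough signal to be tested. Its start region, chr1:17096704-17098208, the longest of those named here at 1504 bp, read 2456, 1953, 1955 and 1451 in vehicle and 1868, 2245, 2144 and 2356 in knockout libraries. The knockout values lay within the vehicle range. The log2 difference of this region was 0.16 (SE 0.17, adjusted p = 0.765), and the sum over the gene differed by 0.16 (−0.15 to 0.47, adjusted p = 0.691). The region also overlaps the RefSeq gene Gm46085, from which its reads cannot be separated. In intron 2, chr1:17071638-17071793 had the smallest p of Jph1, with 15.8 ± 4.67 in vehicle and 8.66 ± 3.39 in knockout libraries (SD, n = 4), a log2 difference of −0.82 (SE 0.39, adjusted p = 0.538).

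The calsequestrins differed at baseline, and Casq2 had the smallest p of the 10 genes for summed and for promoter signal, though not by region or by gene section. Casq1 had 12 regions and Casq2 19, and in vehicle libraries the promoter signal of Casq1 per kilobase was 5.17 ± 1.19 times that of Casq2 (SD, n = 4). The main Casq1 region, at its start (chr1:172219659-172220347), read 1343, 928, 1180 and 854 in vehicle and 836, 989, 967 and 1259 in knockout libraries, with overlapping groups. The sum over Casq1 was 1827 ± 337 in vehicle and 1896 ± 223 in knockout libraries, a log2 difference of 0.07 (−0.25 to 0.39, adjusted p = 0.891). The promoter difference was 0.00 (−0.36 to 0.36, adjusted p = 0.997). The Casq1 region with the smallest p, chr1:172220347-172220549, lies next to the main one and read 57.8, 49.6, 45.1 and 37.5 in vehicle and 65.4, 57.7, 74.8 and 82.3 in knockout libraries. Its log2 difference was 0.55 (SE 0.25, adjusted p = 0.524), and the highest vehicle value, 57.8, was just above the lowest knockout value, 57.7.

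Summed over Casq2, the vehicle libraries read 410, 398, 349 and 375, and the knockout libraries 490, 452, 500 and 477. All knockout values were above all vehicle values, which was so for 3.69% of all genes. The log2 difference was 0.32 (SE 0.14, 95% interval 0.02 to 0.63, unadjusted p = 0.0365 and adjusted p = 0.516 in limma). At the promoter, the vehicle libraries read 129, 137, 107 and 116 and the knockout libraries 205, 154, 159 and 164. Again the groups did not overlap, as for 3.49% of all promoters, with knockout replicate 1 highest. The promoter difference was 0.48 (SE 0.19, 95% interval 0.09 to 0.87, unadjusted p = 0.0180 and adjusted p = 0.468 in limma), which does not pass the threshold.

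The Casq2 promoter, shown in part above, carried less of the gene's signal than intron 1, with vehicle means of 122 and 251. Per kilobase of region, the promoter had more, at 187 against 138 over all Casq2 introns. The strongest Casq2 region, chr3:102099365-102099632 in intron 1, centred 13083 bp into the gene, read 158 ± 22.8 in vehicle and 157 ± 22.0 in knockout libraries (SD, n = 4). Its log2 difference was −0.01 (SE 0.21, adjusted p = 0.992). The Casq2 region with the smallest p, chr3:102099878-102100074, lies close by in the same intron. It read 19.2, 14.4, 32.4 and 28.1 in vehicle and 29.1, 40.1, 47.7 and 47.7 in knockout libraries, with a single vehicle value above the lowest knockout value. The log2 difference there was 0.82 (SE 0.31, adjusted p = 0.480). Of the 7 Casq2 regions tested, 6 had positive differences, 3 of them with an unadjusted p under 0.05 in limma. Over all tested regions, 62.0% had positive differences, and 6.59% had higher knockout values at an unadjusted p under 0.05.

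Per kilobase of region, the calcium pumps showed a larger baseline gap between isoforms than the calsequestrins, but this order depended on the measure. Promoter sums, not divided by length, had vehicle means of 1986 (Atp2a1), 280 (Atp2a2), 1436 (Casq1) and 122 (Casq2). By these the calsequestrins had the larger ratio. Sums over whole genes, at 4468, 322, 1827 and 383, again gave the pumps the larger ratio. Per kilobase, promoter signal of Atp2a1 was 9.61 ± 2.02 times that of Atp2a2 in vehicle and 8.06 ± 2.84 times in knockout libraries (SD, n = 4). By library the ratio was 12.0, 7.77, 10.6 and 8.12 in vehicle and 4.79, 6.73, 9.58 and 11.1 in the knockout, so the groups overlapped. The promoter ratio of Casq1 to Casq2 was 5.96, 3.97, 6.41 and 4.35 in vehicle and 2.64, 3.98, 3.60 and 4.63 in knockout libraries, also overlapping. Over whole genes the pump ratio was 8.76 ± 2.34 and 8.05 ± 2.19, and the calsequestrin ratio 5.40 ± 1.00 and 4.49 ± 0.654. In bulk nuclei, a change in the share of fast fibres and a change of accessibility within fibres cannot be told apart.

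**Figure D4:**
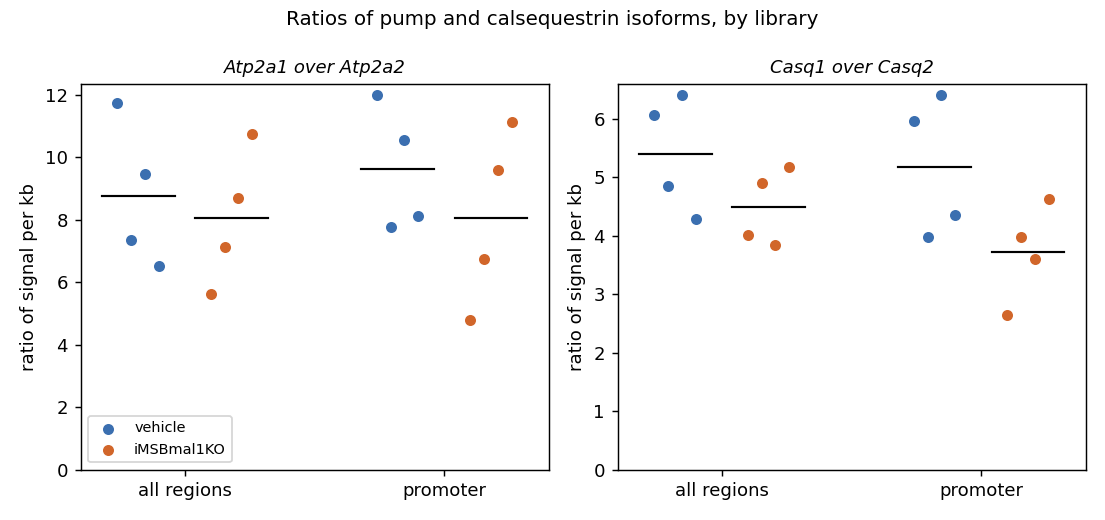
Ratio of signal per kilobase between isoforms (vertical axis, linear scale) for Atp2a1 over Atp2a2 and Casq1 over Casq2, in each library, over whole genes and over promoters. Vehicle and iMSBmal1KO points overlap in each of the 4 ratios, with promoter means of 9.61 and 8.06 for the pumps and 5.17 and 3.71 for the calsequestrins.

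Atp2a1, the fast-fibre pump, had 21 regions, 19 of them tested, and 2 of these held most of the signal. The start region, chr7:126463172-126464350, read 2341, 2014, 2194 and 1398 in vehicle and 1406, 2044, 2143 and 2257 in knockout libraries. Vehicle replicate 4 and knockout replicate 1 were the lowest of their groups, at 1398 and 1406, and the other 6 libraries lay between 2014 and 2341. Its log2 difference was −0.01 (SE 0.19, adjusted p = 0.986). A region annotated to coding exon 5, chr7:126458921-126459680, centred 3802 bp into the gene, was singled out after its values were seen. It held 2280, 1890, 1732 and 1041 in vehicle and 1841, 1971, 1892 and 2067 in knockout libraries, and per kilobase its vehicle mean of 2287 was above the 1686 of the start region. Its log2 difference was 0.22 (adjusted p = 0.720). All 8 coding-exon regions tested in Atp2a1 had positive differences, with a median of 0.31, a pattern noticed after the values were seen and not tested. Over all genes, coding-exon regions had a median of 0.06 with 55.4% positive. Vehicle replicate 4 was low at this gene, with a sum 0.588 times the mean of the other vehicle libraries. The sum over the gene differed by 0.12 (SE 0.17, 95% interval −0.22 to 0.47, adjusted p = 0.794), and the smallest adjusted p of an Atp2a1 region was 0.581, at chr7:126452355-126452422 in intron 12 (log2 difference 0.57, SE 0.32).

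Atp2a2, the pump of slow fibres and heart, had 16 regions and little signal outside its start. The region chr5:122502224-122502671, annotated as TSS, held 50.7% of the gene's signal and read 147, 209, 156 and 141 in vehicle and 262, 284, 185 and 171 in knockout libraries. Knockout replicates 1 and 2 were above the vehicle range, and replicates 3 and 4 within it. This region had the smallest p of Atp2a2, with a log2 difference of 0.45 (SE 0.22, 95% interval −0.02 to 0.91, adjusted p = 0.553). The whole promoter differed by 0.29 (−0.10 to 0.68, adjusted p = 0.560) and the sum over the gene by 0.25 (−0.11 to 0.61, adjusted p = 0.609). With loess scaling these were 0.07 and 0.08.

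Sln, the peptide that binds and inhibits the pump, had 3 regions, the fewest of the 10 genes. Its summed signal was 37.3, 43.1, 41.3 and 34.4 in vehicle and 38.5, 69.4, 46.5 and 43.9 in knockout libraries, at the 40.4 percentile of all genes. The log2 difference of this sum was 0.31 (−0.19 to 0.80, adjusted p = 0.643), and 0.14 without knockout replicate 2. Its main region, chr9:53852340-53852476 in a 5′ UTR exon, read 21.3, 21.6, 22.2 and 15.6 in vehicle and 25.2, 39.3, 33.4 and 28.9 in knockout libraries. All knockout values were above all vehicle values, at a log2 difference of 0.62 (SE 0.29, adjusted p = 0.535). The region held only 5 to 35 reads per vehicle library and 23 to 59 per knockout library.

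Pvalb, the cytosolic calcium buffer, had 29 regions and was the member other than Ryr1 whose sum was lower in the knockout. The sum read 3788, 2985, 3213 and 2326 in vehicle and 2772, 3055, 2772 and 3259 in knockout libraries, a log2 difference of −0.04 (−0.35 to 0.27, adjusted p = 0.946). The knockout values lay inside the vehicle range. The strongest region, chr15:78195098-78195883 in intron 3, is centred 10909 bp into the gene and read 1171 ± 340 in vehicle and 1157 ± 138 in knockout libraries (SD, n = 4), a log2 difference of 0.02 (adjusted p = 0.980). At the promoter the difference was −0.12 (SE 0.16, 95% interval −0.46 to 0.22, adjusted p = 0.776). The smallest p of Pvalb was at chr15:78206885-78206950, a weak TSS region with 16.3 ± 8.61 in vehicle and 6.06 ± 4.47 in knockout libraries, at a log2 difference of −1.37 (SE 0.53, adjusted p = 0.497).

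A list of 28 other genes of calcium handling showed 0 called differences as well. Of these, 27 had regions, and 23 of the 27 summed differences were positive, against 66.6% of all genes. Their median was 0.15, beside 0.14 for the 10 genes and 0.11 for all genes. limma gave an unadjusted p under 0.05 for 3 of the 27, against 9.48% of all genes. All 3 had higher knockout values: Mrln, Ryr3 and Cacna2d1. Mrln, which encodes myoregulin, another peptide inhibitor of the pump, had the smallest p. It read 486, 514, 412 and 366 in vehicle and 548, 744, 564 and 720 in knockout libraries, with no overlap. Its log2 difference was 0.53 (SE 0.16, 95% interval 0.19 to 0.88, adjusted p = 0.416).

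**Figure D5:**
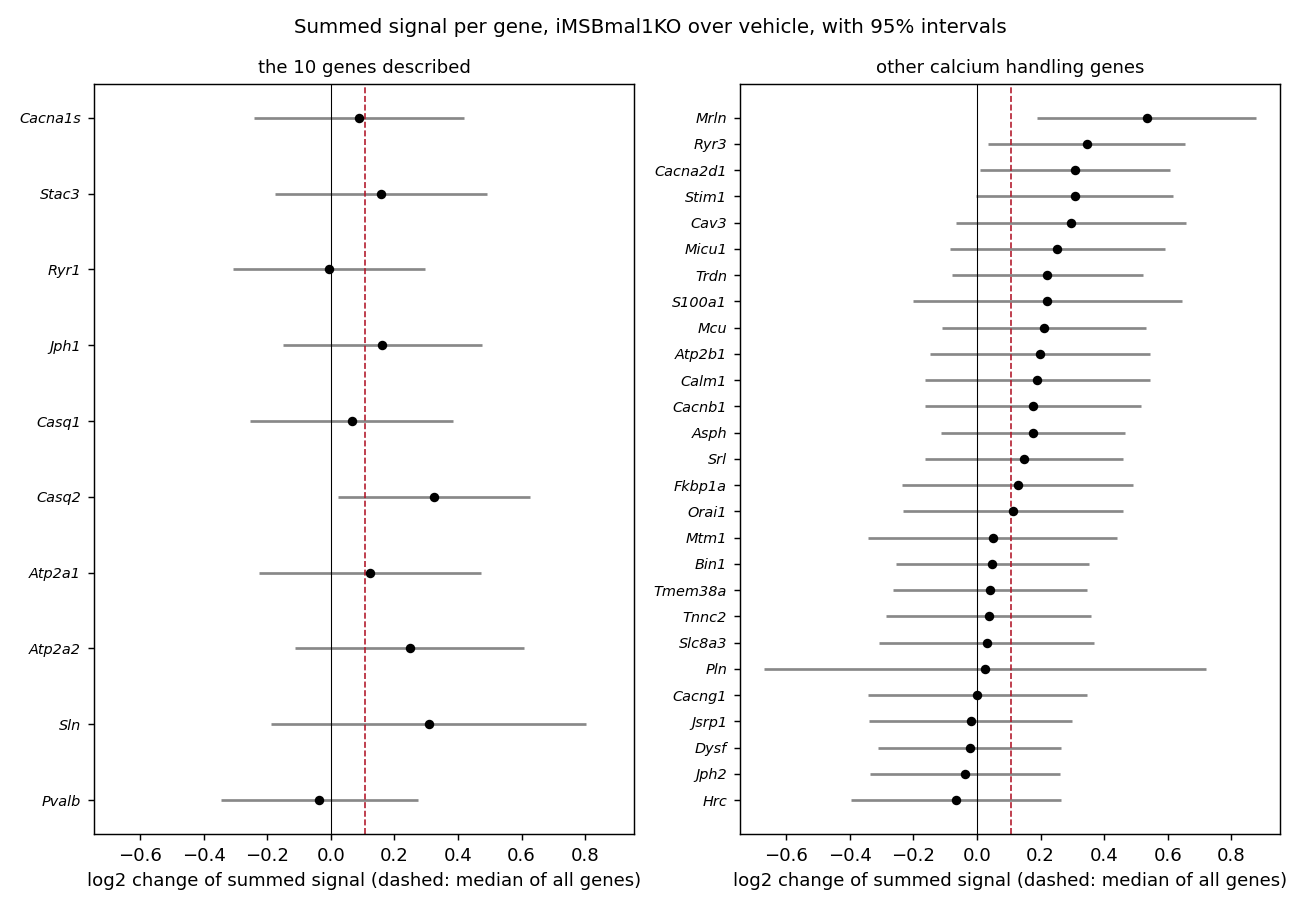
Log2 difference of summed signal between iMSBmal1KO and vehicle (horizontal axis) with its 95% confidence interval for the 10 genes and for the 27 other calcium handling genes with regions. The dashed line marks the median of all genes, 0.11, and Mrln, at 0.53, has the highest value of the second panel. Of the 10 genes, the interval of Casq2, 0.02 to 0.63, lies above 0 and the others include it.

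Reads in regions, taken as the signal divided by the step of each library, ranged from 4311106 to 29486045, and vehicle replicate 4 was the shallowest. Mitochondrial regions took 16.5% of its signal and 1.11% to 5.51% in the others. Its correlations with the other libraries over regions were 0.803 to 0.847, while the highest correlation of each other library was 0.925 to 0.941. It was the lowest library for the sum of 9 of the 10 genes, all but Casq2. Their joint sum in this library was 0.684 times the mean of the other vehicle libraries. The same ratio was 0.666 for 7 fast-fibre markers and 0.633 for 4 markers of all fibres. It was 0.896 for 5 slow-fibre, 0.967 for 3 satellite cell, 0.971 for 3 endothelial and 1.06 for 3 fibro-adipogenic markers. For 2 smooth muscle, 2 hepatocyte, 3 cardiac and 2 macrophage markers it was 0.831, 0.895, 1.12 and 1.44. Over promoters it was 0.687 for fast-fibre and 0.670 for all-fibre markers. The other marker sets ranged from 0.708 (macrophage, 1 promoter) to 1.86 (hepatocyte, 1 promoter). The part of this library's depth or makeup in the differences above was not tested. Without it, the log2 difference of the sum changed from 0.12 to −0.07 for Atp2a1, from 0.09 to −0.04 for Cacna1s and from 0.07 to −0.05 for Casq1. It changed from 0.16 to 0.03 for Jph1, from 0.16 to 0.09 for Stac3, from −0.04 to −0.16 for Pvalb and from −0.01 to −0.13 for Ryr1, and that of Casq2 was 0.32 with or without it.

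Promoters of part of the fibre markers were open in the labelled muscle. Per kilobase, the 7 fast-fibre promoters ranged from percentile 24.2 (Myh2) to 99.1 (Tnnt3) with a median of 96.0, and the 4 of all fibres from 70.3 (Ttn) to 99.4 (Acta1). The 5 slow-fibre promoters ranged from 22.9 (Myl2) to 59.8 (Tnni1) with a median of 30.4. Among other cell types, the 3 endothelial promoters ranged from 10.5 (Pecam1) to 26.4 (Kdr), the 3 satellite cell promoters from 26.1 (Pax7) to 85.6 (Cdh15) and the 3 fibro-adipogenic promoters from 30.5 (Dcn) to 56.8 (Pdgfra), and the macrophage gene Csf1r stood at 5.90. By summed signal, limma called 0 of the marker genes tested between the groups, against 0.13% of all genes. Among these markers Myh4 and Ttr had an unadjusted p under 0.05, where 9.48% of all genes did. The median log2 difference of the sums was 0.07 for fast-fibre and 0.03 for slow-fibre markers. Over the 6 fast-fibre and 4 slow-fibre promoters tested, it was 0.10 and −0.17, with 0 called. For the targeted gene, listed as Arntl, summed signal was 2359 ± 334 in vehicle and 3228 ± 176 in knockout libraries (SD, n = 4), with no overlap, at a log2 difference of 0.46 (adjusted p = 0.374). Of its 37 regions tested, limma called 1, chr7:113250869-113251388, which rose from 187 ± 44.6 to 390 ± 37.6 (adjusted p = 0.0468). Which exons are floxed is not given in the sources used here, so these values do not check the deletion.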

How the data were processed

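Per the labels' protocols, nuclei were isolated from homogenised muscle on sucrose cushions and made into libraries with a commercial ATAC-seq kit. Per the submitters' processing notes, Partek, Bowtie2, MACS2 and DESeq2 were used, with builds mm10 and GRCm39 named and no versions. The bounds of the 10 genes in the table lay within 100 bp of RefSeq's GRCm38.p6 (mm10) at 1 end for 10 genes and at both ends for 8, so coordinates are given as mm10. How duplicates and the transposase shift were treated is not given in the sources used here. The authors deposited 1 table of signal, in which 98.3% to 99.8% of non-zero values per library were whole multiples of 1 step within a tolerance of 0.02 reads. The rest were not whole, so the values were tested as signal and not with a count model, which the plan had allowed for.

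Regions kept for testing had at least 10 reads, scaled to the median depth, in at least 4 libraries and at least 15 reads in all. limma 3.58.1 (R 4.3.3, trend, robust) was fitted to log2(signal + 1) with group as the only term, two-sided, and p-values were adjusted by Benjamini-Hochberg over all features of the table. A log2 difference on this scale understates changes of weak regions. The code was tested on simulated data. Signal was summed by gene, by promoter (1000 bp) and by gene section before the same fit. The alternatives, given in the closing section, changed scaling, filter, pseudocount, promoter window and libraries. The 10 genes and all lists were chosen with earlier results of these data known. Of each gene the text names the sum, the promoter, the region with the highest vehicle signal and the one with the smallest p. The lowest promoter signal per kilobase was that of Atp2a2, but that gene is not in the promoter table, so Casq2 and its counterpart are printed. Intervals are 95% confidence intervals from limma.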

Additional observations from a re-analysis of the deposited data

Results flagged for a closer look

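Among the 72 sets of 4 libraries examined for the 10 genes (sums, promoters and named regions in each group), 2 held a library far from the other 3, where chance gives about 1 in 20, or 3.6. In the Atp2a1 region chr7:126452355-126452422, knockout replicate 4 read 42.65, while the other knockout libraries read 22.66 to 25.09. In the Sln region chr9:53852340-53852476, vehicle replicate 4, the shallowest library, read 15.63, while the other vehicle libraries read 21.32 to 22.24.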

How the results depend on the processing

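None of the 10 genes, their promoters, regions or sections was called under any of the 17 alternatives run per result (19 for promoters). Member regions at an unadjusted p under 0.05 numbered from 6 (minimum count 20, 5 higher and 1 lower) to 24 (without vehicle replicate 2, 13 and 11). The split was 2 higher and 11 lower with loess, and 17 and 6 with no low filter. Calls over all features moved more: 34 to 342 regions (110 as reported), 7 to 116 genes (29), 7 to 267 promoters (14) and 28 to 162 sections (76). Of 341 recomputed differences, 30 changed sign, each of a difference of at most 0.154 in size in the reported fit, and 10 of 19 results never did. On the log2 scale, Atp2a1's promoter became 0.0066 with median-of-ratios scaling and 0.0150 with a 2000 bp window. Casq1's promoter became −0.0510 with scaling to total reads, −0.0784 with loess, −0.0793 with a 500 bp window and −0.0168 with limma-voom, which was added after seeing the data. Casq1's sum became −0.0048 with loess, Stac3's promoter −0.0189 with loess, Ryr1's promoter −0.0248 with total reads and −0.0049 with a 500 bp window, and Ryr1's sum 0.0147 with median-of-ratios scaling. Leaving out 1 library at a time, the ranges were −0.174 to 0.138 (Atp2a1 promoter), −0.066 to 0.238 (Atp2a1 sum), −0.043 to 0.187 (Cacna1s sum), −0.099 to 0.109 (Casq1 promoter), −0.048 to 0.161 (Casq1 sum), −0.163 to 0.071 (Pvalb sum), −0.141 to 0.153 (Ryr1 promoter) and −0.135 to 0.067 (Ryr1 sum). The cause was not tested. Without changing sign, the Jph1 sum ranged from 0.027 to 0.275, the Sln sum from 0.137 to 0.414, the Stac3 sum from 0.017 (loess) to 0.252 and the Cacna1s intron 5 region from −1.80 to −0.597. Casq2 kept its sign, at 0.16 to 0.36 for the sum and 0.27 to 0.53 for the promoter, with lowest adjusted p-values of 0.275 and 0.144. Loess moved the median of all genes from 0.11 to 0.00. Relative to that median, the Casq2 sum was 0.22 as reported and 0.16 with loess. Same-numbered libraries deviated together little (correlations −0.06, 0.14, 0.02 and 0.02). With so few libraries, this cannot settle whether the numbers mark pairs. With the replicate block, 0 member regions, genes, promoters and sections were called. Calls over all features went from 29 to 116 genes, from 14 to 116 promoters and from 110 to 100 regions. The planned count-model alternatives were not run, since the values were not all whole reads. In vehicle replicate 4, the shallowest library, weak regions rested on few reads.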
